A study of Mus musculus with 3 samples.

Results

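Gene expression of macrophages from a primary mammary tumor was compared, gene by gene, with that of macrophages grown from bone marrow in culture. The tumor was formed by 4T1, a carcinoma line of BALB/c mice that was inoculated into the fat pad of mice of the same strain and that spreads to the lung. The 2 groups were pTAMs, the tumor-associated macrophages of the primary tumor 5 weeks after inoculation, and BMDM, macrophages differentiated from the marrow of healthy mice. The sources used here name no engineered allele for either group. The study sorted pTAMs for CD11b and F4/80, and in some experiments also for absence of Ly6C. Whether the cells of the array were gated on Ly6C is not stated, and a sort of BMDM is not described. Each group was measured on 1 array, and the labels do not say whether an array held RNA of 1 animal or of several, so the values carry no error between animals and no test could be made. Precision is limited by having 2 arrays. The tumor-bearing mice were 5 to 6 weeks old at inoculation, and the strain and age of the marrow donors are not given in the sources used here. In all, the series has 3 arrays, and the array of mTAMs, the macrophages of the matched metastatic lung, is quoted only beside these 2. Of 18193 genes read from 1 probe set each, the 11859 with an RMA value above 5.3 on the BMDM or the pTAM array were compared. RMA values are on a log2 scale, so a difference of 1 is a 2-fold difference. The value of 5.3 is the floor, a level kept from earlier work on these data and taken here as background.

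Macrophages are phagocytes that take much of their gene program from their surroundings. Progenitors grown from marrow divide in culture and mature into cells that clear debris and handle lipid. Macrophages of tumors come largely from blood monocytes, and they are known for secreting cytokines and chemokines, presenting antigen, remodelling matrix and living where oxygen is scarce. Tumor tissue was minced, digested with enzymes, separated on Percoll and sorted, whereas BMDM had grown in culture. The handling and the origin of the cells therefore cannot be told apart in any difference below.

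pTAMs differed from BMDM in both directions, with the larger differences on the higher side. In pTAMs, 1041 genes were at least 2-fold higher than in BMDM, which is 8.78% of the compared genes, and 890 were at least 2-fold lower, which is 7.5%. The other 9928 genes (83.7%) were within 2-fold. At 8-fold, 248 genes were higher and 53 lower, and at 32-fold 59 were higher and 7 lower. The median difference over all compared genes was -0.05 on the log2 scale, and 5% of the genes lay below -1.25 and another 5% above 1.69. BMDM did not reach above the floor for 302 of the higher genes, and pTAMs did not for 118 of the lower genes. Thus 86.7% of the lower genes were still above the floor in pTAMs. A gene above the floor on 1 array only was compared through that array, so it could differ in 1 direction only. Where the lower of both values did not exceed the floor, the fold was taken from the floor and is written "at least". Genes with their higher value just above the floor (160 genes) had differences from -1.65 to 1.07, and the 271 genes just below it had differences from -1.73 to 2.53. Both sets had a median of 0.

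**Figure D1:**
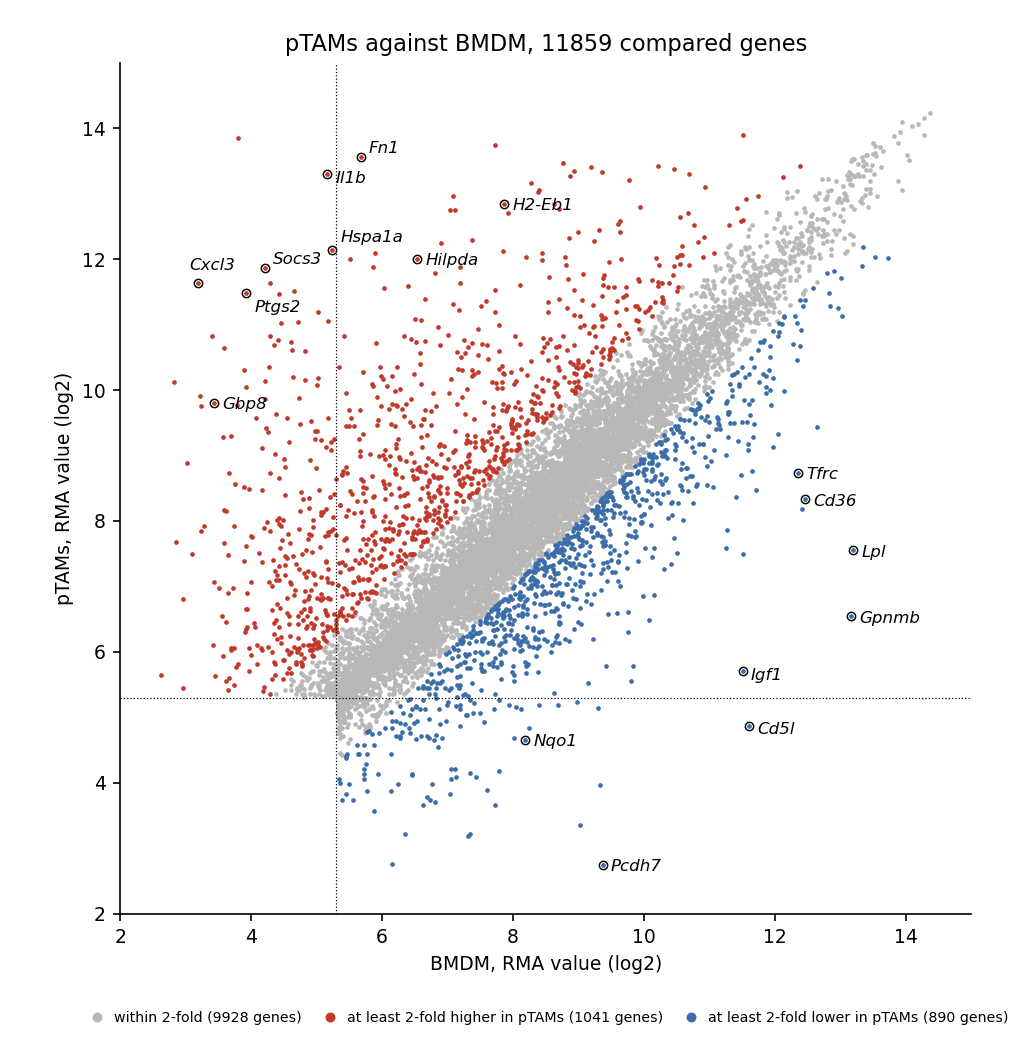
RMA values (log2) of the 11859 compared genes in BMDM (horizontal axis) and pTAMs (vertical axis), 1 point per gene, colored by whether they were within 2-fold, at least 2-fold higher or at least 2-fold lower in pTAMs, with the floor of 5.3 dotted on both axes. The higher genes (1041) reach far above the diagonal from low BMDM values, as *Cxcl3* and *Gbp8* do, whereas most of the lower genes (890) lie closer to it.

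The spread between probe sets of 1 gene shows how far a difference depends on the probe set read. It was taken over the 5353 genes with further probe sets above the floor. The log2 differences (pTAMs minus BMDM) of a gene's probe sets had a pooled SD of 0.43 around their mean. This spread holds no error between animals. Of the 463 higher genes with further probe sets, all further ones were at least 2-fold higher for 264 (57.0%), and for 10 all had the opposite sign. Of the 443 lower genes, 242 (54.6%) had only probe sets at least 2-fold lower. Where the further probe sets of a gene named below had the opposite sign, no difference or one more than 2 log2 units away, their log2 differences are given. List medians depended on the probe sets and the floor in part. Where a median of at least 0.3 in size moved by over 1.5 times under another setting, the other value stands beside it. The settings were no floor (all genes read), a floor 1 log2 unit higher, values raised to the floor, an average over each gene's probe sets, and unshared probe sets, those not marked as shared between transcripts.

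Both arrays carried the markers of macrophages. Of 14 compared general macrophage genes, 9 were within 2-fold, 4 were higher and 1 was lower, with log2 differences from -1.93 to 2.86. *Csf1r*, the receptor for the growth factor on which macrophages depend, was 13.35 in BMDM and 13.27 in pTAMs. *Cd14*, a receptor for bacterial lipopolysaccharide, was 13.18 in BMDM and 13.14 in pTAMs. *Lyz2*, which encodes lysozyme, was 14.29 in BMDM and 13.9 in pTAMs. These 3 genes differed by less than the spread between probe sets. *Spi1*, which encodes the macrophage transcription factor PU.1, was 10.52 in BMDM and 10.7 in pTAMs. *Mertk* (from 8.18 in BMDM to 9.31 in pTAMs) and *Fcgr1* (from 10.91 to 12.03), a pair of phagocytic receptors, were 2.19-fold higher and 2.17-fold higher. The genes of the sorting markers differed in level, with *Itgam* (CD11b) 10.46 in BMDM and 11.9 in pTAMs and *Adgre1* (F4/80) 11.93 in BMDM and 10 in pTAMs.

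Markers of other cell types were in part higher in the pTAM sample, and macrophages can express some of them. In a bulk sample, fewer cells of a type and less RNA per cell cannot be told apart. Neutrophil markers were higher by at least 2-fold in 19 of 22 cases and lower in none, with a summed level of 11.03 in BMDM and 15.57 in pTAMs (log2 of the summed signals), and 9 of them were at or below the floor in BMDM. *S100a8*, which encodes a subunit of the calcium-binding complex calprotectin, was 8.76 in BMDM and 13.47 in pTAMs. *Csf3r*, the receptor for granulocyte colony-stimulating factor, was 6.28 in BMDM and 10.02 in pTAMs. *Cxcr2*, the receptor that guides neutrophils, was 5.14 in BMDM and 8.18 in pTAMs. Genes of primary granules, which are made early in neutrophil life, were not alike, with *Elane* 5.42 in BMDM and 5.48 in pTAMs, *Ctsg* 5.4 in BMDM and 5.18 in pTAMs and *Prtn3* 4.74 in BMDM and 9.48 in pTAMs. Of 15 epithelial or carcinoma markers, 9 were higher (summed level 9.42 in BMDM and 12.29 in pTAMs). In BMDM, 7 of these 15, 5 of 11 fibroblast markers and 5 of 12 dendritic cell markers were at or below the floor. The keratin gene *Krt8* was 5.34 in BMDM and 10.36 in pTAMs. *Krt5* was at 5.42 on both arrays, and *Krt14*, *Krt17*, *Cldn7*, *Esrp1* and *Ocln* were at or below the floor on both. *Epcam* was 6.38 in BMDM and 6.53 in pTAMs (3.50 from its second probe set). Of 11 fibroblast markers, 6 were higher (summed level 10.74 and 10.97), among them *Pdgfra* with 4.94 in BMDM and 7.2 in pTAMs, while *Lum* and *Postn* were at or below the floor on both arrays. Monocyte markers, which macrophages fresh from blood share, had 11 of 17 higher and 1 lower (summed level 14.87 and 15.72). Dendritic cell markers had 4 of 12 higher (summed level 10.3 and 10.88), among them *Fscn1* with 4.07 in BMDM and 9.57 in pTAMs (other probe sets gave from 0 to 0.33). Of mast cell or basophil markers, 2 of 4 were higher (summed level 7.53 and 10.2), namely *Hdc*, which makes histamine, with 6.2 in BMDM and 9.99 in pTAMs and *Kit* with 4 in BMDM and 5.95 in pTAMs, while *Cpa3* was at or below the floor on both arrays. One of 4 NK cell markers was higher (summed level 7.53 and 8.77), *Klrk1* with 5.68 in BMDM and 8.13 in pTAMs. One of 8 endothelial markers was higher (summed level 9.19 and 9.38), *Pecam1* with 3.92 in BMDM and 7.61 in pTAMs, and *Tek* and *Tie1* were at or below the floor on both arrays. Of 15 T cell markers on the array 7 were compared, with none higher and 1 lower, and of 12 B or plasma cell markers 4 were compared, all within 2-fold. None of 5 eosinophil markers was above the floor on either array. Whether these transcripts came from other cells, and their part in the differences below, was not tested. With the listed markers of other cells left out, 998 genes were higher and 888 lower. This only takes those genes out of the count, so it cannot show what other cells added to the remaining genes.

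Promoters were read from 250 bases before to 50 bases after the annotated start of 9562 of the compared genes (RefSeq, GRCm38.p6), and short motifs were looked for on both strands. They are shown for genes of 4 groups described below, the inflammatory genes, the interferon-γ GTPases, a heat shock gene and the mitotic genes. Each printed sequence runs 5′ to 3′ on the strand of the gene from 170 bases before to 30 bases after the start, with the motif matches in capitals. A match is a description and not evidence of binding. For the chemokine genes *Cxcl3* (chr5:90785931-90786130, plus strand) and *Cxcl2* (chr5:90903729-90903928, plus strand) and for *Tnfaip3* (chr10:19015381-19015580, minus strand), which encodes a brake on NF-κB signaling, the capitals mark NF-κB sites (kappaB motif, matched on both strands at nearly the same place in *Cxcl3* and *Cxcl2*) and, in *Cxcl3*, a TATA box (TATAAA).
Cxcl3: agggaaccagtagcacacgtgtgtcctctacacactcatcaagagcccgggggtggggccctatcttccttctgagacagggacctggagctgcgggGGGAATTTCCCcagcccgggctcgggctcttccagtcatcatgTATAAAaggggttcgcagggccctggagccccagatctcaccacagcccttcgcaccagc
Cxcl2: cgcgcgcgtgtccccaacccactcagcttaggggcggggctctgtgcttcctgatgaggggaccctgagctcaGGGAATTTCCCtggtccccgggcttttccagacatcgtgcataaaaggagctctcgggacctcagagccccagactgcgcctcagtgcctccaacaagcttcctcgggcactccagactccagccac
Tnfaip3: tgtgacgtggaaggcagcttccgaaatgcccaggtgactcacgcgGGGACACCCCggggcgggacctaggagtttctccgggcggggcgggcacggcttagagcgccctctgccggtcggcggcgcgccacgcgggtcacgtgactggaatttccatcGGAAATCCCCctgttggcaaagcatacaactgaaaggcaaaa
In the guanylate-binding protein genes *Gbp7* (chr3:142530166-142530365, plus strand) and *Gbp3* (chr3:142559874-142560073, plus strand), which lie near each other, the capitals mark the core of the interferon-stimulated response element (TTTCNNTTT), with 2 overlapping matches in *Gbp3*.
Gbp7: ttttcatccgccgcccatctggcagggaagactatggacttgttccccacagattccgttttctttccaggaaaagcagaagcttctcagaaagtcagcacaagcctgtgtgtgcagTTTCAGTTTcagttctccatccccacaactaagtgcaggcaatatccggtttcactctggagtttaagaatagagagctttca
Gbp3: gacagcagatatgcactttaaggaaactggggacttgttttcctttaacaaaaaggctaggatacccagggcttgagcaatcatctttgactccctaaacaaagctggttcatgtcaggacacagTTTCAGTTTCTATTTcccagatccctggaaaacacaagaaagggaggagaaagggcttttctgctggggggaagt
In *Hspa1a* (chr17:34972127-34972326, minus strand), which encodes the inducible chaperone HSP70, the capitals mark a heat shock element (GAANNTTC).
Hspa1a: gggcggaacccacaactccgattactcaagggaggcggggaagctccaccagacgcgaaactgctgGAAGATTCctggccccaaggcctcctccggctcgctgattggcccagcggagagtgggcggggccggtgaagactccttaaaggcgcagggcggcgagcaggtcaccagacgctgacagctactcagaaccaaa
In *Prc1* (chr7:80294281-80294480, plus strand) and *Spc25* (chr2:69206184-69206383, minus strand), which act in the mitotic spindle and at the kinetochore, the capitals mark the CHR element (TTTGAA), known from cell cycle genes, and the CCAAT box.
Prc1: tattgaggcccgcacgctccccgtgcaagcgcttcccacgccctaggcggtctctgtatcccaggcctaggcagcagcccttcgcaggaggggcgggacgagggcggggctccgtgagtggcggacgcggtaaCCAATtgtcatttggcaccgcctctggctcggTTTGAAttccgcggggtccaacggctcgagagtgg
Spc25: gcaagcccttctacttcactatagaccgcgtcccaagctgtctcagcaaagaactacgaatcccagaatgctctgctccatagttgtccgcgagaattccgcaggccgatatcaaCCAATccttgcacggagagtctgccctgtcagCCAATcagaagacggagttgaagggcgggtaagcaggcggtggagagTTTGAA

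The motifs were unevenly spread over the groups. The kappaB motif stood in 5.04% of all promoters searched, in 7.52% of the 798 genes at least 2-fold higher and in 10.5% of the 361 genes at least 4-fold higher. The corresponding shares were 3.73%, 8.02% and 10.8% for the AP-1 site, 7.77%, 11.9% and 13.9% for the interferon core, and 7.34%, 13.5% and 17.7% for TATAAA, which stood also in 11.5% of the genes at least 4-fold lower. The CHR element stood in 11.9% of all promoters, in 19.9% of the 710 genes at least 2-fold lower and in 27.9% of the 165 genes at least 4-fold lower. Outside the mitosis and DNA replication lists, these last shares were 17.3% and 21.3%. Of 38 mitotic genes with a promoter, 27 (71.1%) held the CHR element and 29 (76.3%) the CCAAT box, which stood in 38.3% of all promoters. The core of the hypoxia response element stood in 62.5% of all promoters, in 51.5% of the genes at least 4-fold higher and in 22 of 25 promoters (88.0%) of the hypoxia list. Promoters of these groups also differed in base composition. The median GC content was 56.0% in the genes at least 4-fold higher and 65.3% in the hypoxia list, against 60.7% over all. Whether this bears on the motif shares was not tested.

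**Figure D2:**
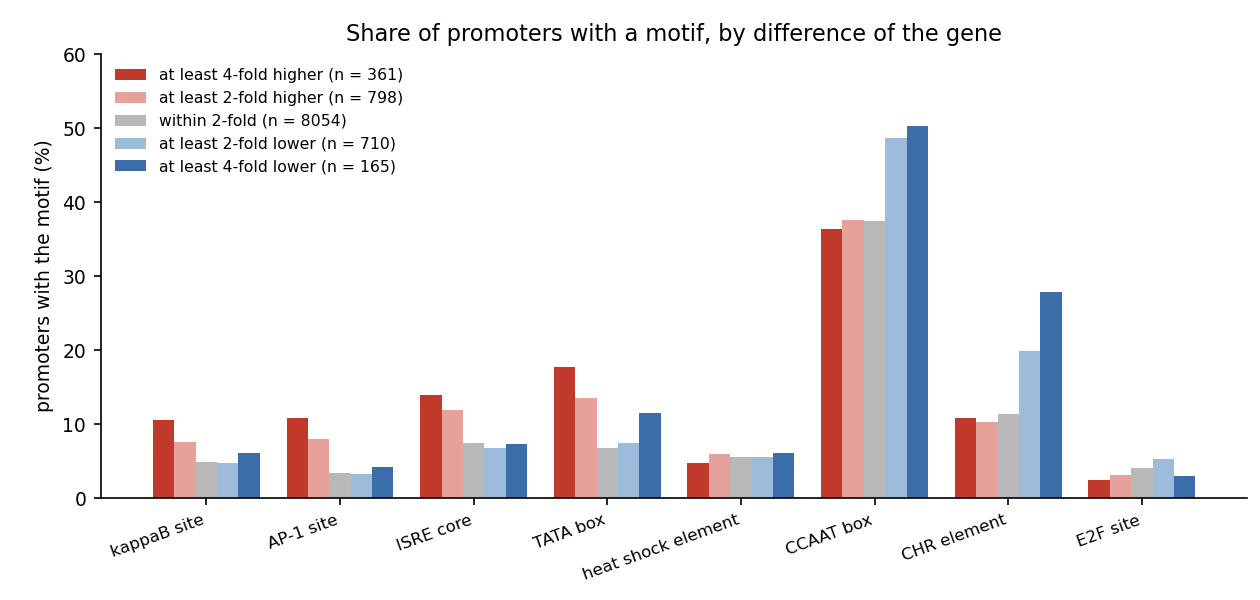
Share of promoters (percent, 250 bases before to 50 bases after the start) that hold each motif on either strand, for genes within 2-fold and for genes at least 2-fold and 4-fold higher or lower in pTAMs (bars), the 4-fold sets being part of the 2-fold sets. AP-1 and TATA box shares are highest in genes at least 4-fold higher (10.8% and 17.7%), and the CHR share is highest in genes at least 4-fold lower (27.9%).

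A majority of inflammatory cytokine genes was higher in pTAMs, and *Tnf* was not. Of 16 compared, 10 (62.5%) were at least 2-fold higher, with none lower, with a median log2 difference of 2.12. This median was 1.4 with no floor and 0.97 with values raised to the floor, as 7 of the 16 genes were at or below the floor in BMDM. *Il1b*, which encodes the pyrogen interleukin-1β, was 5.16 in BMDM and 13.3 in pTAMs. *Il1a* was 5.17 in BMDM and 9.58 in pTAMs (at least 19.4-fold higher). *Il6*, a driver of the acute phase response, was 3.22 in BMDM and 9.91 in pTAMs (at least 24.4-fold higher). *Osm* (oncostatin M) was 6.65 in BMDM and 11.39 in pTAMs, which is 26.7-fold higher. *Lif*, of the same family, was 5.36 in BMDM and 7.22 in pTAMs (3.63-fold higher). Of the growth factors of the myeloid lineage, *Csf1* was 6.14 in BMDM and 9.48 in pTAMs (10.1-fold higher, from 0.78 to 2.13 from its other probe sets). *Csf3* was 4.59 in BMDM and 7.67 in pTAMs (at least 5.17-fold higher). *Csf2* was 4.52 on both arrays, below the floor, and was not compared. *Tnf* was 8.37 in BMDM and 7.62 in pTAMs. *Il10*, which encodes an anti-inflammatory cytokine, was 5.99 in BMDM and 5.58 in pTAMs, so both were within 2-fold. *Ebi3*, a subunit shared by the cytokines IL-27 and IL-35, was 8.8 in BMDM and 7.95 in pTAMs, also within 2-fold.

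The genes around interleukin-1 covered the ligand, its brakes and its activators. Of 21 compared, 12 were at least 2-fold higher, with none lower (median 1.29). The decoy receptor *Il1r2*, also a neutrophil marker, was 5.86 in BMDM and 11.88 in pTAMs (64.9-fold higher). The receptor antagonist *Il1rn* was 9.03 in BMDM and 11.14 in pTAMs (4.32-fold higher). *Il18bp*, which binds and blocks interleukin-18, was 5.88 in BMDM and 8.38 in pTAMs (5.66-fold higher). *Mefv*, which encodes the inflammasome sensor pyrin, was 5.44 in BMDM and 9.95 in pTAMs (22.8-fold higher). Other inflammasome genes were within 2-fold, with *Nlrp3* 8.9 in BMDM and 9.63 in pTAMs, the adaptor *Pycard* 10.69 in BMDM and 11.23 in pTAMs and the protease *Casp1* 10.48 in BMDM and 9.68 in pTAMs.

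Chemokine ligands were higher by class. Of 27 compared, 16 (59.3%) were at least 2-fold higher, with none at least 2-fold lower (median 1.65, and 1.05 with no floor). The ligands that attract neutrophils through CXCR2 were all higher. *Cxcl3* was 3.18 in BMDM and 11.64 in pTAMs. *Cxcl2* was 7.08 in BMDM and 12.96 in pTAMs (58.9-fold higher). *Cxcl1* was 6.52 in BMDM and 10.74 in pTAMs (18.6-fold higher, from 1.42 to 4.81 from its other probe sets). *Cxcl5* was 4.59 in BMDM and 6.24 in pTAMs. *Ppbp* was 6.2 in BMDM and 8.79 in pTAMs. The interferon-γ-induced ligands of CXCR3, which attract T cells, were higher too, with *Cxcl9* 3.4 in BMDM and 10.82 in pTAMs (1.15 from its second probe set), *Cxcl10* 7.76 in BMDM and 10.03 in pTAMs (4.82-fold higher) and *Cxcl11* 6.36 in BMDM and 9.79 in pTAMs (10.8-fold higher). Among ligands tied to type 2 responses, *Ccl24*, which attracts eosinophils, was 5.89 in BMDM and 12.1 in pTAMs. *Ccl17* was 4.84 in BMDM and 7.55 in pTAMs (at least 4.76-fold higher). Of a pair of monocyte attractants, *Ccl8* was 5.9 in BMDM and 10.72 in pTAMs (28.2-fold higher). *Ccl12* was 8.45 in BMDM and 11.99 in pTAMs (11.6-fold higher). The other 4 higher ligands were *Cxcl16*, *Ccl5*, *Ccl22* and *Ccl6*, with log2 differences from 1.13 to 2.69. The remaining 11 ligands were within 2-fold. Among them were *Ccl2*, the main monocyte attractant, with 12.65 in BMDM and 11.66 in pTAMs, *Ccl7* with 10.78 in BMDM and 10.39 in pTAMs, *Ccl9* with 13.33 in BMDM and 12.86 in pTAMs, *Ccl3* with 10.97 in BMDM and 11.6 in pTAMs and *Ccl4* with 10.77 in BMDM and 10.92 in pTAMs.

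Receptors for chemoattractants were higher in 10 of 19 genes and lower in 2 (median 1.44, and 0.36 with no floor). *Ccr1*, which binds several of the CC ligands, was 8.2 in BMDM and 12.03 in pTAMs (14.2-fold higher). *Ccr2*, the receptor by which monocytes leave the marrow, was 10.83 in BMDM and 12.27 in pTAMs (2.71-fold higher). *Fpr2*, a receptor for formyl peptides of bacteria and mitochondria, was 8.45 in BMDM and 12.1 in pTAMs (12.6-fold higher). The decoy *Ackr3* was 3.59 in BMDM and 10.65 in pTAMs. The non-signaling *Ccrl2* was 6.81 in BMDM and 11.79 in pTAMs (31.6-fold higher). *S1pr1*, the receptor for the lipid that draws cells out of tissue, was 8.34 in BMDM and 6.19 in pTAMs (4.44-fold lower).

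Among signaling genes, several feedback inhibitors were at least 2-fold higher. Of 21 NF-κB genes, 10 were at least 2-fold higher, with none lower, and 20 had a positive difference (median 0.88, and 1.37 with unshared probe sets). The core subunit *Rela* was 9.56 in BMDM and 9.58 in pTAMs. The kinase gene *Ikbkb* was 9.62 in BMDM and 10.24 in pTAMs (from -0.04 to 0.37 from its other probe sets). Of the feedback inhibitors, *Nfkbia* was 11.42 in BMDM and 12.79 in pTAMs (2.58-fold higher). *Tnfaip3* was 7.62 in BMDM and 10.48 in pTAMs (7.26-fold higher). *Zc3h12a*, which encodes an RNase that degrades cytokine mRNAs, was 6.06 in BMDM and 7.72 in pTAMs (3.16-fold higher). *Nfkbiz*, a nuclear IκB protein that is needed for *Il6* induction, was 6.6 in BMDM and 11.07 in pTAMs (22.2-fold higher). In this list 8 of 18 promoters (44.4%) held the kappaB motif. Of 21 JAK, STAT and SOCS genes, 7 were higher and none lower (median 0.21). *Socs3*, which like *Socs2* inhibits cytokine receptors, was 4.21 in BMDM and 11.86 in pTAMs. *Socs2* was 3.69 in BMDM and 9.3 in pTAMs (at least 16-fold higher). *Stat3*, which acts below IL-6, was 8.87 in BMDM and 10.43 in pTAMs (2.95-fold higher). *Stat6*, which acts below IL-4, was 10.32 in BMDM and 10.42 in pTAMs. Of 26 cytokine receptor genes, 12 were higher and none lower (median 0.7). The IL-4 and IL-13 receptor chains *Il4ra* (6.83 in BMDM and 9.76 in pTAMs) and *Il13ra1* (5 in BMDM and 10.08 in pTAMs) were 7.62-fold higher and at least 27.5-fold higher. The common β chain *Csf2rb* of the GM-CSF receptor was 9.46 in BMDM and 11.96 in pTAMs (5.66-fold higher).

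Sensors of microbes were mostly within 2-fold. Of 24 Toll-like receptor pathway genes, 5 were higher and 2 lower (median 0.38, and 0.22 with probe sets averaged). *Tlr2* was 8.93 in BMDM and 10.26 in pTAMs (2.51-fold higher). Its partner *Tlr1* was 7.7 in BMDM and 9.63 in pTAMs (3.81-fold higher). *Tlr4* was 9.97 in BMDM and 10.4 in pTAMs. The adaptor *Myd88* was 10.1 in BMDM and 10.43 in pTAMs. *Tlr7*, a sensor of RNA, was 9.75 in BMDM and 8.37 in pTAMs (2.6-fold lower). *Cd180* was 9.48 in BMDM and 7.8 in pTAMs (3.2-fold lower).

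**Figure D3:**
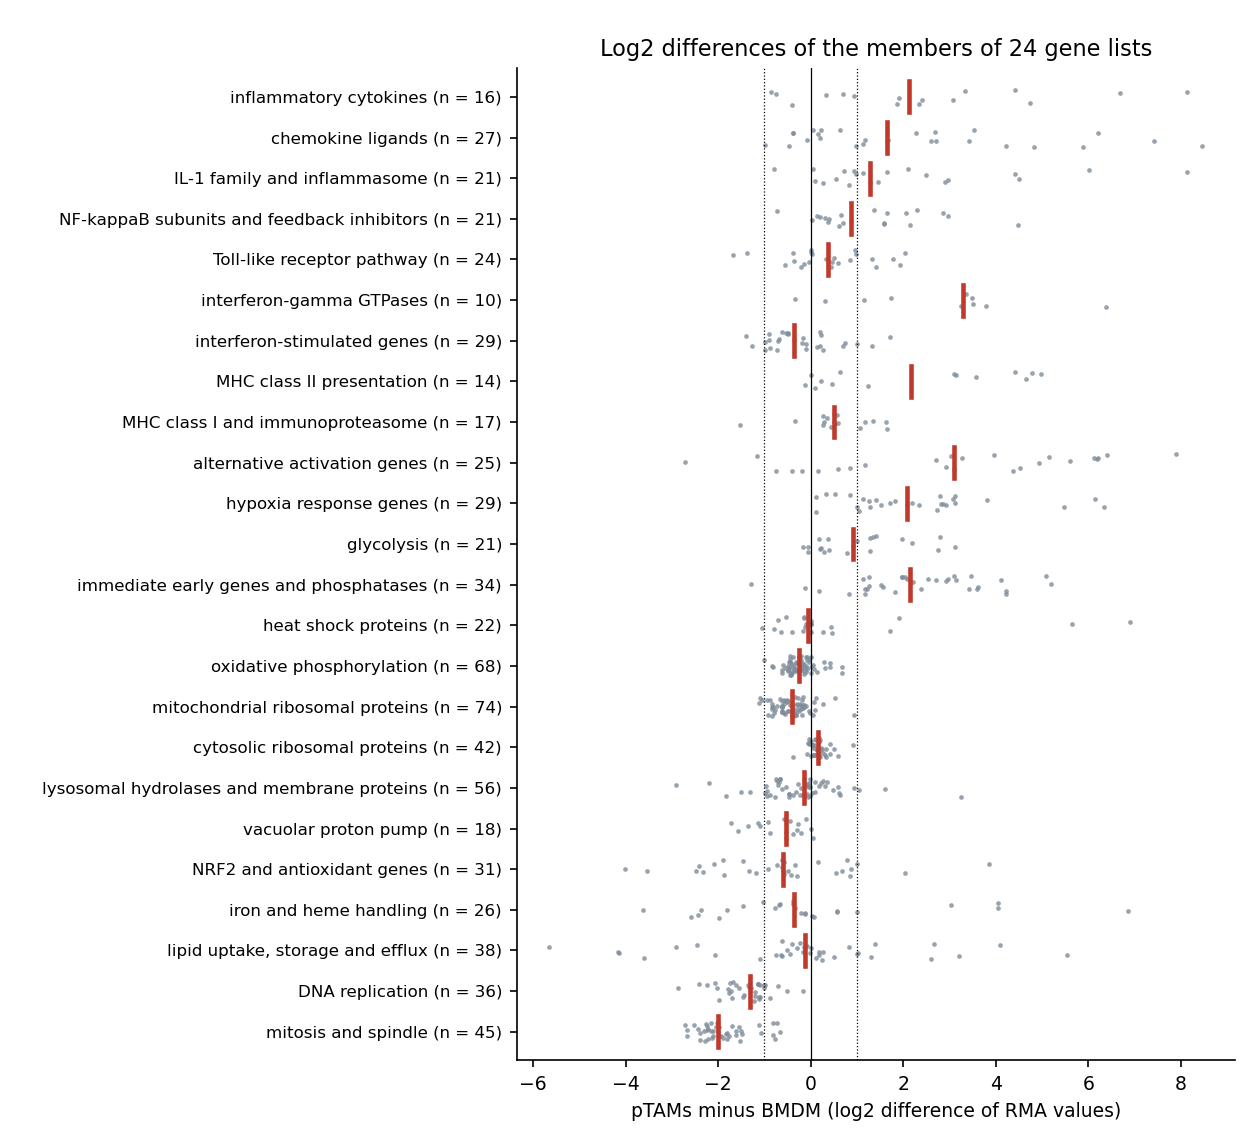
Log2 difference (pTAMs minus BMDM, horizontal axis) of the members of 24 gene lists (vertical axis), 1 point per gene, with the list median as a bar and dotted lines at a 2-fold difference in either direction. Inflammatory cytokines, hypoxia genes and MHC class II genes lie to the right (medians 2.12, 2.08 and 2.16), and the mitosis list lies to the left with no member above 0 (median -2.01).

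Genes induced by interferon differed by list. Of 10 interferon-γ-induced GTPase genes, whose products attack vacuoles of intracellular microbes, 8 were at least 2-fold higher, with none lower (median 3.3). *Gbp8* was 3.43 in BMDM and 9.81 in pTAMs (at least 22.8-fold higher). *Gbp7* was 7.51 in BMDM and 11.29 in pTAMs (13.7-fold higher). *Gbp3* was 7.25 in BMDM and 10.76 in pTAMs (11.4-fold higher). *Gbp2* was 7.72 in BMDM and 11.2 in pTAMs (11.2-fold higher). *Iigp1* was 7.31 in BMDM and 10.66 in pTAMs (10.2-fold higher). Members of this family resemble each other in sequence, so signal may be shared between their probe sets. Of 29 genes known to be induced chiefly by type I interferon, 3 (10.3%) were higher and 2 (6.9%) lower, with a median of -0.36. These shares were near the 8.78% and 7.5% over all compared genes. The antiviral gene *Rsad2* was 10.44 in BMDM and 11.76 in pTAMs (2.5-fold higher). *Ifit1* was 8.99 in BMDM and 8.63 in pTAMs. *Irf7* was 11.04 in BMDM and 10.36 in pTAMs. *Oas3* was 8.85 in BMDM and 7.45 in pTAMs (2.64-fold lower). The interferon core motif stood in 7 of 7 GTPase promoters and in 13 of 20 promoters (65.0%) of the other list (the share over all promoters is given above).

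Genes for presenting antigen to CD4 T cells were higher, with the exception of some regulators and proteases. Of 14 MHC class II genes, 8 were at least 2-fold higher, with none lower (median 2.16, and 0.63 over 11 genes with unshared probe sets). *H2-Aa*, which encodes an α chain, was 8.94 in BMDM and 13.35 in pTAMs (21.3-fold higher). *H2-Ab1* was 7.92 in BMDM and 12.71 in pTAMs. *H2-Eb1* was 7.87 in BMDM and 12.85 in pTAMs. The invariant chain *Cd74* was 8.38 in BMDM and 13.03 in pTAMs. The peptide exchange factor gene *H2-DMa* was 8.81 in BMDM and 11.91 in pTAMs (8.57-fold higher). Its partner *H2-DMb2* was 6.21 in BMDM and 9.78 in pTAMs (11.9-fold higher). *Ciita*, the transactivator that switches this set of genes on, was 4.73 in BMDM and 7.88 in pTAMs (at least 5.98-fold higher). Its DNA-binding partners differed little, with *Rfx5* 7.33 in BMDM and 7.8 in pTAMs, *Rfxank* 6.86 in BMDM and 7.09 in pTAMs (no difference from its second probe set) and *Rfxap* 7.93 in BMDM and 7.8 in pTAMs. The protease *Ctss*, which trims the invariant chain, was high on both arrays (13.53 in BMDM and 13.63 in pTAMs). MHC class I genes had 5 of 17 higher and 1 lower (median 0.51). The peptide transporter gene *Tap1* was 8.54 in BMDM and 10.16 in pTAMs (3.07-fold higher). *Nlrc5*, the class I transactivator, was 7.73 in BMDM and 9.37 in pTAMs (3.12-fold higher). The light chain *B2m* was 13.51 in BMDM and 13.78 in pTAMs.

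Of the ligands that tune T cells, some were higher on both the stimulating and the inhibiting side. Their list also holds receptors. Of 19 compared, 7 were at least 2-fold higher and 1 was lower (median 0.36, and 0.19 with no floor). *Cd86*, which costimulates T cells, was 5.7 in BMDM and 10.27 in pTAMs (23.8-fold higher). *Cd80* was 6.1 in BMDM and 7.9 in pTAMs (3.48-fold higher). *Cd274*, which encodes the checkpoint ligand PD-L1, was 6.58 in BMDM and 10.57 in pTAMs (15.9-fold higher). *Pdcd1lg2*, which encodes PD-L2, was 3.62 in BMDM and 8.15 in pTAMs (at least 7.21-fold higher). The receptor gene *Tnfrsf9* (4-1BB) was 4.97 in BMDM and 9.37 in pTAMs (at least 16.8-fold higher). *Cd200r1*, an inhibitory receptor, was 10.13 in BMDM and 8.96 in pTAMs (2.25-fold lower). *Icosl* was 7.72 in BMDM and 7.86 in pTAMs.

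Surface receptors of phagocytes differed by family. Among 8 Fc receptor genes, 4 were higher and 1 lower (median 0.91, but 0 with no floor). The inhibitory *Fcgr2b* was 9.2 in BMDM and 13.41 in pTAMs (18.5-fold higher). The activating *Fcgr4* was 8.85 in BMDM and 12.32 in pTAMs (11.1-fold higher). The signaling chain *Fcer1g* was 13.11 in BMDM and 12.9 in pTAMs. Of 20 C-type lectin receptor genes, 10 were higher and 2 lower (median 1.02, and 0.74 with no floor). In BMDM, 6 of the 20 were at or below the floor, so they were compared only through their pTAM value. *Clec7a* (dectin-1), which binds fungal glucan, was 8.71 in BMDM and 12.77 in pTAMs (16.7-fold higher). *Clec4n* (dectin-2) was 7.84 in BMDM and 12.13 in pTAMs (19.6-fold higher). *Clec4e*, a sensor of dead cells and mycobacteria, was 9.68 in BMDM and 11.43 in pTAMs (3.36-fold higher). The mannose receptor gene *Mrc1* was within 2-fold (11.38 in BMDM and 11.96 in pTAMs). Of the related receptors that pair with signaling adaptors, *Trem1*, an amplifier of inflammation, was 5.99 in BMDM and 10.22 in pTAMs (18.8-fold higher). *Trem2*, a receptor for lipids and apoptotic cells, was 11.87 in BMDM and 9.95 in pTAMs (3.78-fold lower). Complement genes had 6 of 12 higher and 1 lower (median 0.88, 0.12 with no floor and 1.67 with the higher floor), and *C1qc* of the initiating complex was 9.94 in BMDM and 12.8 in pTAMs (7.26-fold higher) beside *C1qa* with 8.87 in BMDM and 13.28 in pTAMs and *C1qb* with 8.4 in BMDM and 13.06 in pTAMs.

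Genes of alternative activation, a state induced by IL-4 and IL-13, were higher in 17 of 25 (68.0%) and lower in 2 (median 3.1). In BMDM, 8 of the 25 were at or below the floor, so they were compared only through their pTAM value. *Chil3*, a chitinase-like protein gene, was 5.02 in BMDM and 11.2 in pTAMs (at least 59.7-fold higher). *Retnla*, also induced by IL-4, was 5.97 in BMDM and 10.35 in pTAMs (20.8-fold higher). *Tgm2*, which encodes a transglutaminase, was 9.36 in BMDM and 13.33 in pTAMs (15.7-fold higher). *Alox15*, a lipoxygenase gene, was 5.46 in BMDM and 8.74 in pTAMs (9.71-fold higher). *Mgl2* was 3.92 in BMDM and 10.04 in pTAMs. The related lectin gene *Clec10a* was 7.74 in BMDM and 8.59 in pTAMs, within 2-fold. *Folr2*, a folate receptor gene of resident macrophages, was on the other side with 12.05 in BMDM and 9.33 in pTAMs (6.59-fold lower). *Cdh1* of this list is also an epithelial marker. An array made from many cells does not show whether single cells expressed inflammatory and alternative genes together. The genes of the inflammatory oxidative burst did not differ at the 2-fold level. None of 9 oxidase and nitric oxide synthase genes was called, and *Nos2*, which makes nitric oxide, was 5.53 in BMDM and 6.31 in pTAMs, near the floor on both arrays. The oxidase subunit *Cybb* was 11.09 in BMDM and 11.89 in pTAMs.

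**Figure D4:**
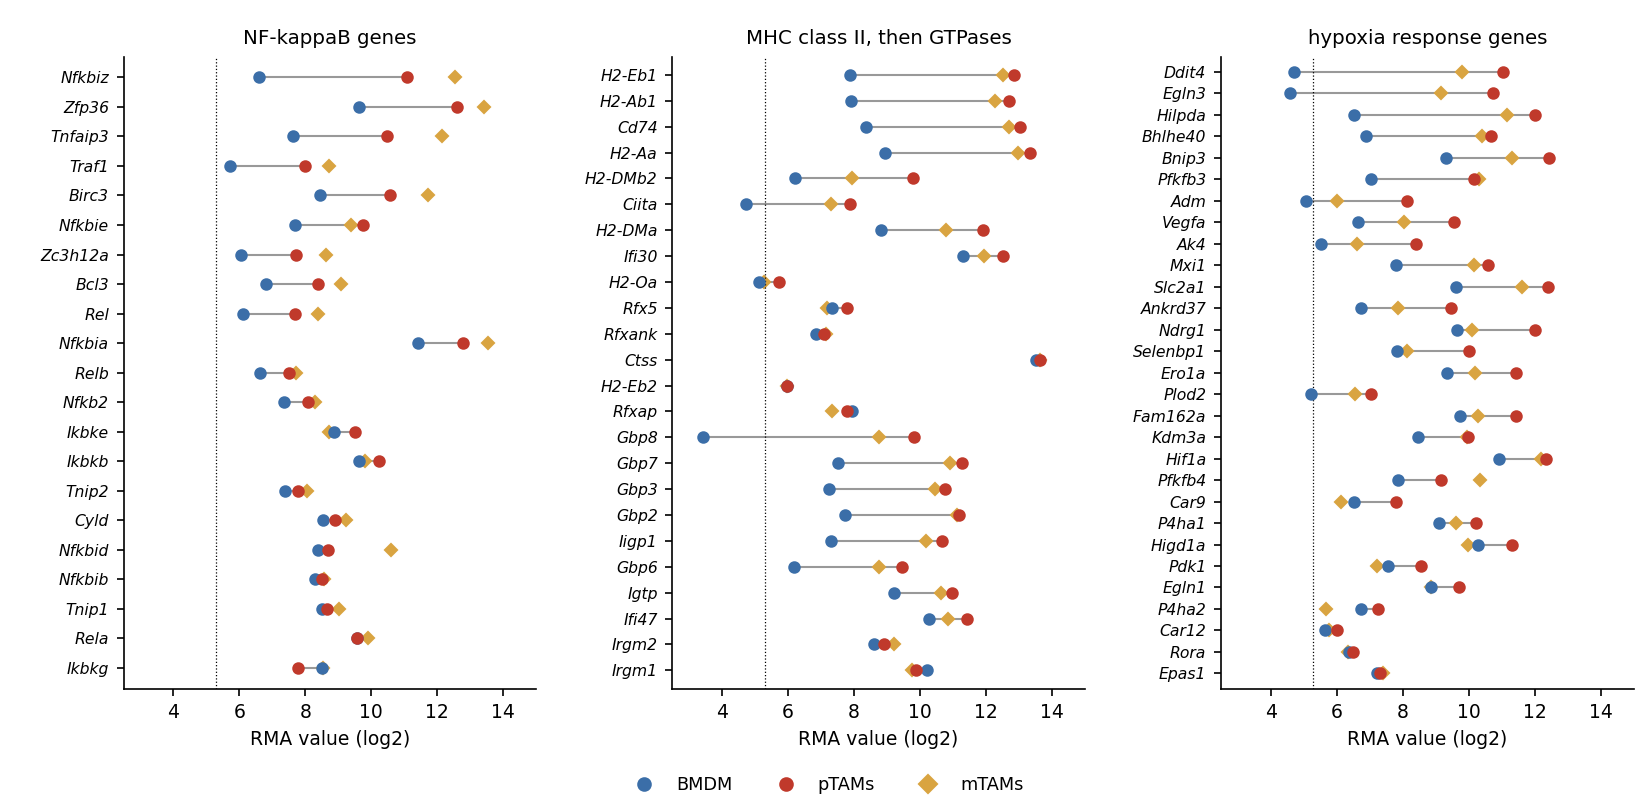
RMA values (log2, horizontal axes) of all compared NF-κB genes, MHC class II and interferon-γ GTPase genes, and hypoxia genes (vertical axes) in BMDM, pTAMs and mTAMs, each array being 1 point, with a line from BMDM to pTAMs and the floor of 5.3 dotted. *Gbp8* lies below the floor in BMDM (3.43) and at 9.81 in pTAMs, *Rela* is alike on both arrays (9.56 and 9.58), and pTAM points of the hypoxia genes lie to the right of BMDM.

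Genes that respond to low oxygen were higher in pTAMs. Of 29 compared, 24 (82.8%) were at least 2-fold higher, none was lower and all 29 had a positive difference (median 2.08). *Ddit4*, an inhibitor of the growth regulator mTORC1, was 4.71 in BMDM and 11.04 in pTAMs (at least 53.4-fold higher). *Hilpda*, which keeps lipid droplets from being broken down, was 6.53 in BMDM and 12.01 in pTAMs. *Ndrg1* was 9.65 in BMDM and 12 in pTAMs (5.1-fold higher). *Vegfa*, the main angiogenic factor, was 6.64 in BMDM and 9.56 in pTAMs (7.57-fold higher, 5.34 from its second probe set). The vasodilator peptide gene *Adm* was 5.07 in BMDM and 8.14 in pTAMs (at least 7.16-fold higher). *Hif1a*, the oxygen-regulated subunit of the factor itself, was 10.92 in BMDM and 12.34 in pTAMs (2.68-fold higher). *Epas1*, which encodes HIF-2α, was 7.22 in BMDM and 7.33 in pTAMs. In mTAMs, compared with the same BMDM array, 15 of these genes were at least 2-fold higher and 1 was lower (median 1.09).

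A part of the glycolytic genes was higher in pTAMs. Of 21 compared, 10 were at least 2-fold higher, with none lower (median 0.92). The glucose transporter gene *Slc2a1* was 9.63 in BMDM and 12.42 in pTAMs (6.92-fold higher). *Eno2*, an enolase form best known from neurons, was 6.1 in BMDM and 8.86 in pTAMs (6.77-fold higher). Hexokinase *Hk2* was 8.52 in BMDM and 10.72 in pTAMs (4.59-fold higher). *Pfkfb3*, whose product activates phosphofructokinase, was 7.06 in BMDM and 10.17 in pTAMs (8.63-fold higher). The lactate exporter gene *Slc16a3* was 6.02 in BMDM and 8 in pTAMs (3.94-fold higher). The other higher ones were *Pfkl*, *Slc2a3*, *Pfkfb4*, *Slc16a1* and *Pdk1*, with log2 differences from 1.0 to 1.42. The remaining 11 genes were within 2-fold, with *Aldoa* 12.8 in BMDM and 12.97 in pTAMs, *Pgk1* 12.86 in BMDM and 13.06 in pTAMs, *Pkm* 12.5 in BMDM and 12.44 in pTAMs and *Ldha* 12.64 in BMDM and 12.92 in pTAMs. In mTAMs 6 of the 21 genes were higher (median -0.07).

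Genes of the citric acid cycle and of enzymes that use its metabolites differed little, with 2 of 26 higher and none lower (median -0.35). The 2 encode enzymes of the latter kind. *Acod1*, which makes the antibacterial metabolite itaconate, was 7.19 in BMDM and 11.63 in pTAMs (21.7-fold higher). *Acly*, which exports citrate carbon to lipid synthesis, was 10.58 in BMDM and 12.06 in pTAMs (2.79-fold higher). Of 68 oxidative phosphorylation genes, none was higher and 1, *Cox7a1*, was lower (7.39 in BMDM and 6.39 in pTAMs), although 56 had a negative difference (median -0.24). Mitochondrial ribosomal protein genes were alike, with 3 of 74 lower, none higher and 67 negative (median -0.4). For cytosolic ribosomal proteins, none of 42 was called and 34 were positive (median 0.15). With other scalings these 3 medians ranged from -0.32 to -0.19, from -0.47 to -0.33 and from 0.08 to 0.18.

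Proteases and matrix genes were higher. Of 27 protease and inhibitor genes, 14 (51.9%) were at least 2-fold higher and 1 was lower (median 1.0, and 0.49 with probe sets averaged). The gelatinase gene *Mmp9*, also a neutrophil marker, was 5.41 in BMDM and 10.82 in pTAMs (42.5-fold higher). *Mmp14*, a membrane-bound collagenase gene, was 5.85 in BMDM and 10.09 in pTAMs (18.9-fold higher). *Mmp13* was 8.53 in BMDM and 11.19 in pTAMs (6.32-fold higher). The inhibitor *Timp1* was 6.68 in BMDM and 8.54 in pTAMs (3.63-fold higher). *Plau*, which encodes urokinase, was the lower one with 13.03 in BMDM and 11.14 in pTAMs (3.71-fold lower). Its receptor *Plaur* was 9.89 in BMDM and 11.28 in pTAMs (2.62-fold higher). Collagens and matrix proteins had 16 of 24 higher and none lower (median 1.5). Of the 24 genes, 10 were at or below the floor in BMDM, so they were compared only through their pTAM value. The median was 1.14 with no floor (31 genes), 1.16 with values raised to the floor and 2.21 with the higher floor. *Fn1* (fibronectin) was 5.67 in BMDM and 13.56 in pTAMs. *Thbs1* (thrombospondin-1) was 5.51 in BMDM and 12.01 in pTAMs (90.5-fold higher). *Tgfbi* was 10.69 in BMDM and 13.31 in pTAMs (6.15-fold higher). The fibrillar collagen gene *Col3a1*, a fibroblast marker, was 4.75 in BMDM and 8.15 in pTAMs (at least 7.21-fold higher). *Col1a1* was 5.02 in BMDM and 5.47 in pTAMs, near the floor on both arrays.

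Mediators made from lipid and nucleotides were also among the higher genes. Of 20 eicosanoid genes, 7 were higher and 3 lower (median 0.52, and 0.11 with no floor). *Ptgs2* (cyclooxygenase 2) was 3.92 in BMDM and 11.48 in pTAMs. *Ltb4r1*, the receptor for the neutrophil attractant leukotriene B4, was 7.47 in BMDM and 10.27 in pTAMs (6.96-fold higher). *Hpgds*, which makes prostaglandin D2, was 9.62 in BMDM and 7.48 in pTAMs (4.41-fold lower). Of 15 genes of the extracellular ATP and adenosine pathway, 8 were higher and none lower (median 1.6, and 0.6 with no floor). Of the enzymes that turn ATP into adenosine, *Entpd1* (CD39) was 6.15 in BMDM and 9.79 in pTAMs (12.5-fold higher). *Nt5e* (CD73) was 6.11 in BMDM and 8.56 in pTAMs (5.46-fold higher, 6.98 from its second probe set). The ATP-gated channel *P2rx7* was 7.67 in BMDM and 9.27 in pTAMs (3.03-fold higher).

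Among transcription factors of myeloid cells, 13 of 39 were higher and 1 lower (median 0.38, 0.2 with probe sets averaged and 0.25 with no floor). *Cebpb*, which drives emergency myelopoiesis and cytokine genes, was 10.94 in BMDM and 13.11 in pTAMs (4.5-fold higher). *Irf1*, induced by interferon-γ, was 9.05 in BMDM and 11.38 in pTAMs (5.03-fold higher). *Bhlhe40* was 6.89 in BMDM and 10.69 in pTAMs (13.9-fold higher). *Ahr*, the receptor for tryptophan metabolites, was 6.49 in BMDM and 10.25 in pTAMs (13.5-fold higher, 0.41 from its second probe set). *Runx3* was 5.86 in BMDM and 10.06 in pTAMs (18.4-fold higher, 0.55 from its second probe set). The lower one was *Pparg*, the lipid-sensing nuclear receptor, with 8.01 in BMDM and 5.55 in pTAMs (5.5-fold lower).

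Genes of the cell cycle were lower in pTAMs. Of 45 mitosis genes, 40 (88.9%) were at least 2-fold lower, none was higher and all 45 had a negative difference (median -2.01). *Mki67*, the common marker of cycling cells, was 11.61 in BMDM and 9.79 in pTAMs (3.53-fold lower). *Cdk1*, the kinase that starts mitosis, was 10.81 in BMDM and 8.57 in pTAMs (4.72-fold lower). Its cyclin *Ccnb2* was 10.56 in BMDM and 8.55 in pTAMs (4.03-fold lower). The spindle genes *Prc1* and *Spc25*, whose promoters are shown above, were 10.46 in BMDM and 7.74 in pTAMs (6.59-fold lower), and 10.13 in BMDM and 7.45 in pTAMs (6.41-fold lower, -0.30 from the second probe set). *Top2a*, which untangles chromosomes, was 11.17 in BMDM and 9.41 in pTAMs (3.39-fold lower). Of 36 DNA replication genes, 31 were lower and none was higher (median -1.31). The helicase subunits *Mcm5* and *Mcm6* were 10.84 in BMDM and 9.17 in pTAMs (3.18-fold lower), and 11.11 in BMDM and 9.41 in pTAMs (3.25-fold lower). The clamp *Pcna* was 13.34 in BMDM and 11.89 in pTAMs (2.73-fold lower). *Ccne2*, a cyclin of the entry into S phase, was 9.45 in BMDM and 6.58 in pTAMs (7.31-fold lower). All the genes named in this paragraph were above the floor on both arrays, so transcripts of dividing cells were measured in pTAMs as well. Of 23 regulators of G1, 4 were higher and 8 lower (median -0.46, -0.21 with unshared probe sets and -0.26 with no floor). *Ccnd1*, the cyclin that growth factors induce, was 12.4 in BMDM and 10.92 in pTAMs (2.79-fold lower). The inhibitor *Cdkn1b* was 8.35 in BMDM and 10.07 in pTAMs (3.29-fold higher). *Mxd1*, an antagonist of Myc, was 6.44 in BMDM and 10.78 in pTAMs (20.3-fold higher, from 2.33 to 3.64 from its other probe sets). *Myc* itself was 9.3 in BMDM and 9.49 in pTAMs.

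Lipid genes were found on both sides. Of 38 compared, 9 were higher and 8 lower (median -0.12). The lower ones included *Lpl*, which frees fatty acids from lipoproteins, with 13.2 in BMDM and 7.55 in pTAMs, *Cd36*, which takes them up, with 12.47 in BMDM and 8.33 in pTAMs, and *Fabp4*, which carries them, with 8.21 in BMDM and 6.15 in pTAMs (4.17-fold lower, from -2.12 to no difference from its other probe sets). *Lipa*, which breaks down cholesteryl esters in lysosomes, was 11.66 in BMDM and 8.76 in pTAMs (7.46-fold lower). Among the higher ones, the cholesterol exporter gene *Abca1* was 6.03 in BMDM and 11.56 in pTAMs (46.2-fold higher). *Apoe*, which accepts the cholesterol, was 10.21 in BMDM and 13.42 in pTAMs (9.25-fold higher). The desaturase gene *Scd2* was 8.93 in BMDM and 11.53 in pTAMs (6.06-fold higher). Cholesterol synthesis genes had 2 of 22 lower (9.09%) and none higher, with 18 negative (median -0.36). Their lower share was near the 7.5% over all compared genes. *Fdps* was 10.32 in BMDM and 8.99 in pTAMs (2.51-fold lower). Fatty acid oxidation genes had 1 of 32 lower and none higher (median -0.12), with *Cpt1a*, which admits fatty acids to mitochondria, 10.02 in BMDM and 9.44 in pTAMs.

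Receptors for debris and dying cells were also found on both sides. Of 26 scavenger and efferocytosis genes, 7 were higher and 4 lower (median -0.48, -0.28 with no floor and 0 with probe sets averaged). *Axl*, which recognizes dying cells, was 8.11 in BMDM and 10.7 in pTAMs (6.02-fold higher). The hemoglobin receptor gene *Cd163* was 6.66 in BMDM and 9.69 in pTAMs (8.17-fold higher). *Gas6*, the ligand of Axl, was 10.97 in BMDM and 8.55 in pTAMs (5.35-fold lower, -0.80 from its second probe set). The scavenger receptor gene *Colec12* was 11.02 in BMDM and 8.92 in pTAMs (4.29-fold lower). *Cd5l* was 11.6 in BMDM and 4.87 in pTAMs. *Msr1*, the class A scavenger receptor gene, was within 2-fold (12.63 in BMDM and 12.45 in pTAMs, from -0.07 to 1.12 from its other probe sets).

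Genes of the lysosomal proton pump and of osteoclast-like macrophages were lower in part. Of 23 osteoclast-like and MITF-family genes, 8 were lower and 4 higher (median -0.81, but -0.33 with probe sets averaged and -0.17 both with unshared probe sets and with no floor). *Gpnmb*, a lysosomal glycoprotein gene, was 13.16 in BMDM and 6.54 in pTAMs (a difference of -4.67 from its second probe set). The adhesion molecule gene *Cadm1* was 11.48 in BMDM and 8.71 in pTAMs (6.82-fold lower). *Ctsk*, the bone-degrading cathepsin gene, was 7.53 in BMDM and 5.7 in pTAMs (3.56-fold lower). *Mitf* itself was 9.67 in BMDM and 8.7 in pTAMs, within 2-fold, and its second probe set gave no difference. The higher ones included *Acp5*, the tartrate-resistant phosphatase gene, with 6.22 in BMDM and 9.75 in pTAMs (11.6-fold higher), and *Ocstamp*, which acts in cell fusion, with 5.38 in BMDM and 8.72 in pTAMs (10.1-fold higher). The vacuolar proton pump, which acidifies lysosomes, had 5 of 18 subunits lower, none higher and 16 negative (median -0.53). *Atp6v1c1* was 12.28 in BMDM and 10.71 in pTAMs (2.97-fold lower). *Atp6v0d2* was 7.88 in BMDM and 6.16 in pTAMs (3.29-fold lower). Lysosomal hydrolases and membrane proteins were mostly within 2-fold, with 3 of 56 higher and 5 lower (median -0.15). Their lower share of 8.93% was near the 7.5% over all compared genes. The protease *Ctsd* was 13.54 in BMDM and 12.04 in pTAMs (2.83-fold lower). *Ctsh* was 8.79 in BMDM and 12.03 in pTAMs (9.45-fold higher).

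**Figure D5:**
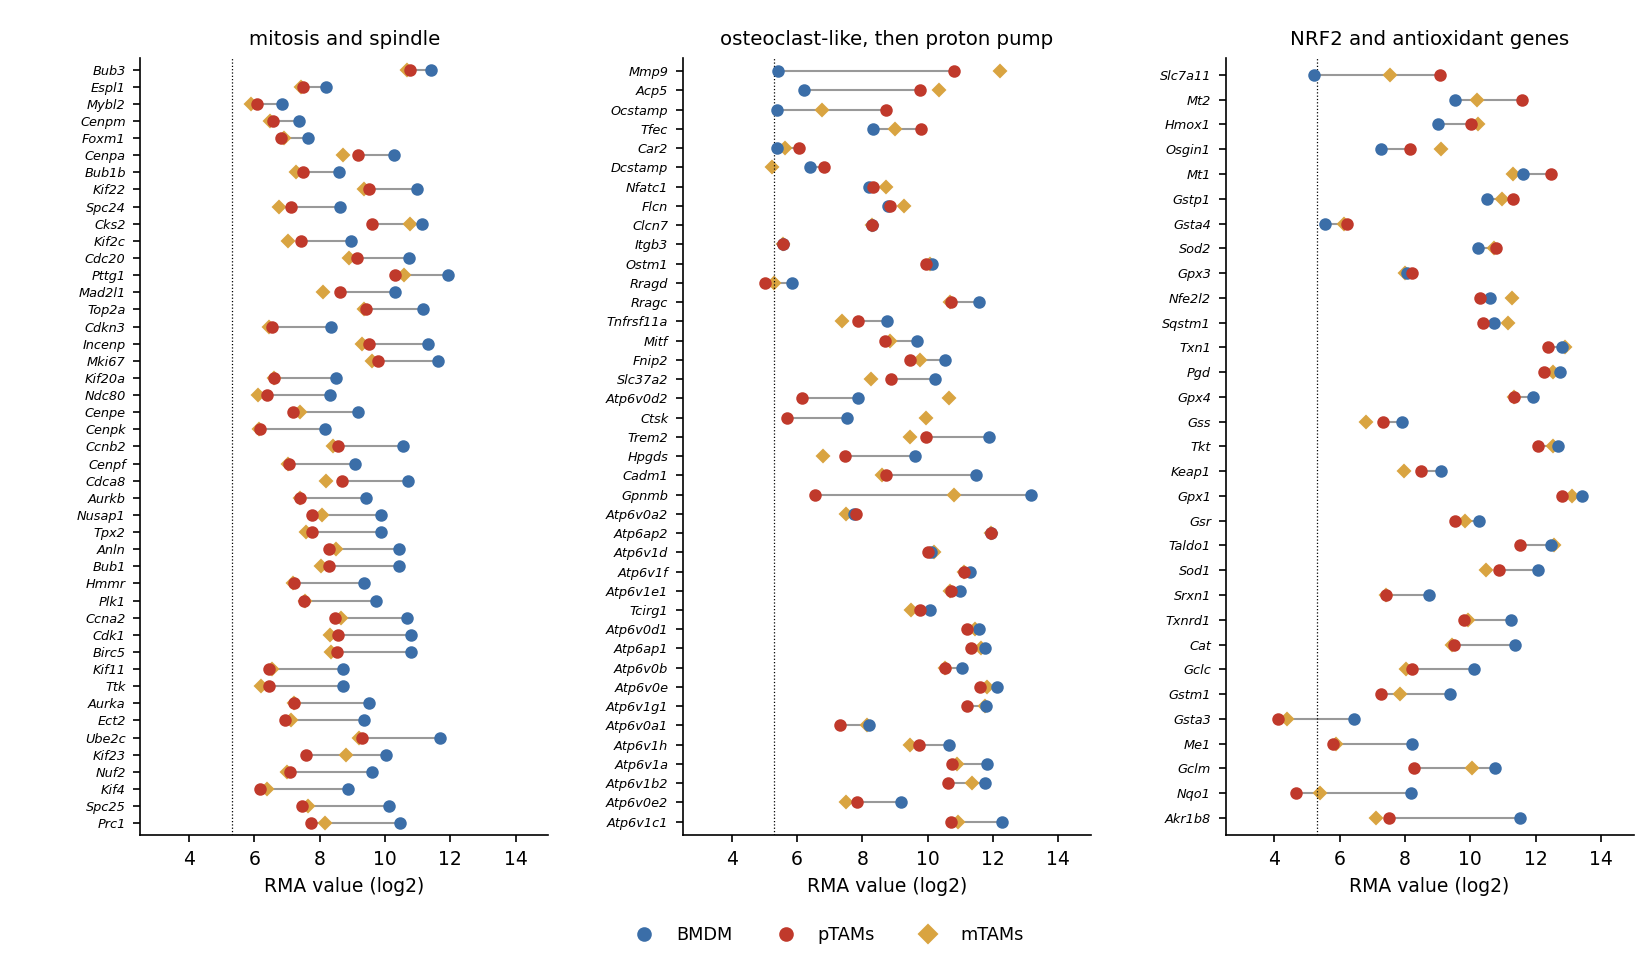
RMA values (log2, horizontal axes) of all compared mitosis genes, osteoclast-like and proton pump genes, and NRF2 and antioxidant genes (vertical axes) in BMDM, pTAMs and mTAMs, each array being 1 point, with a line from BMDM to pTAMs and the floor of 5.3 dotted. Every mitosis gene lies lower in pTAMs than in BMDM, *Gpnmb* lies at 13.16 in BMDM, 6.54 in pTAMs and 10.80 in mTAMs, and *Slc7a11* lies to the other side (5.22 in BMDM and 9.08 in pTAMs).

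Antioxidant and iron genes leaned to the lower side. Of 31 genes of the NRF2 and antioxidant list, 11 were lower and 3 higher (median -0.6). *Nqo1*, the classic NRF2 target, was 8.18 in BMDM and 4.65 in pTAMs (at least 7.36-fold lower). The glutathione synthesis genes *Gclm* and *Gclc* were 10.75 in BMDM and 8.27 in pTAMs (5.58-fold lower), and 10.1 in BMDM and 8.21 in pTAMs (3.71-fold lower). Thioredoxin reductase *Txnrd1* was 11.26 in BMDM and 9.8 in pTAMs (2.75-fold lower). In contrast, the cystine transporter gene *Slc7a11* was 5.22 in BMDM and 9.08 in pTAMs (at least 13.7-fold higher, 1.09 from its second probe set). Heme oxygenase *Hmox1* was 9.02 in BMDM and 10.03 in pTAMs (2.01-fold higher). *Nfe2l2*, which encodes NRF2, was 10.6 in BMDM and 10.3 in pTAMs (1.84 from its second probe set). Of 26 iron and heme genes, 8 were lower and 5 higher (median -0.36, and -0.21 with no floor). The transferrin receptor gene *Tfrc*, which imports iron and is high in dividing cells, was 12.36 in BMDM and 8.73 in pTAMs (12.4-fold lower, from -1.64 to -1.45 from its other probe sets). The heme transporter gene *Slc48a1* was 10.6 in BMDM and 8.02 in pTAMs (5.98-fold lower). Biliverdin reductase *Blvrb* was 11.5 in BMDM and 9.51 in pTAMs (3.97-fold lower). The iron exporter gene *Slc40a1* was 9.91 in BMDM and 8.45 in pTAMs (2.75-fold lower). Ferritin *Fth1* was alike on both arrays (14.29 in BMDM and 14.16 in pTAMs). On the higher side, *Lcn2*, which binds bacterial iron carriers and is a neutrophil marker, was 4.65 in BMDM and 11.51 in pTAMs.

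Growth factor genes were higher and lower in similar number, 9 and 6 of 28 (median 0.18). *Inhba*, which encodes activin A, was 7.2 in BMDM and 10.51 in pTAMs (9.92-fold higher). *Hbegf*, a ligand of the EGF receptor, was 5.74 in BMDM and 8.31 in pTAMs (5.94-fold higher). *Tgfb3* was 4.76 in BMDM and 8.45 in pTAMs (at least 8.88-fold higher). *Tgfb1* was 8.31 in BMDM and 8.47 in pTAMs. *Igf1*, which BMDM had at a high level, was 11.51 in BMDM and 5.7 in pTAMs. The co-receptor genes *Nrp1* and *Nrp2*, which bind VEGF and semaphorins, were 11.76 in BMDM and 10.13 in pTAMs (3.1-fold lower), and 10.64 in BMDM and 8.81 in pTAMs (3.56-fold lower). Adhesion genes had 11 of 30 higher and 3 lower (median 0.52, and 0.32 with no floor). *Vcam1* was 4.92 in BMDM and 9.53 in pTAMs (at least 18.8-fold higher, from 1.42 to 2.73 from its other probe sets). The integrin gene *Itgax* (CD11c) was 6.62 in BMDM and 9.56 in pTAMs (7.67-fold higher). *Itga8* was 9.83 in BMDM and 5.79 in pTAMs (16.4-fold lower).

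Immediate early genes, which respond within minutes to signals and also to the handling of tissue, were higher almost throughout. Of 34 compared, 30 (88.2%) were at least 2-fold higher and 1 was lower (median 2.14), and their summed level was 14.19 in BMDM and 16.27 in pTAMs. Of genes for subunits of the AP-1 factor, *Fos* was 10.46 in BMDM and 13.38 in pTAMs (7.57-fold higher). *Fosb* was 3.66 in BMDM and 8.74 in pTAMs (at least 10.9-fold higher). *Junb* was 7.47 in BMDM and 10.93 in pTAMs (11-fold higher). *Jun* was 10.13 in BMDM and 11.69 in pTAMs (2.95-fold higher, -0.16 from its second probe set). *Dusp1*, a phosphatase that ends MAP kinase signals, was 8.62 in BMDM and 12.85 in pTAMs (18.8-fold higher). *Nr4a1* was 7.09 in BMDM and 11.31 in pTAMs (18.6-fold higher). The exception was the phosphatase gene *Dusp4* with 9.54 in BMDM and 8.24 in pTAMs (2.46-fold lower). Heat shock genes, also known to respond to handling, were mostly within 2-fold, with 4 of 22 higher and 1 lower (median -0.06). *Hspa1a* was 5.23 in BMDM and 12.14 in pTAMs. *Hspa1b* was 7.12 in BMDM and 12.76 in pTAMs, and the 2 genes are nearly identical in sequence, so their signals may not be separate. *Hspb1* was 6.61 in BMDM and 8.51 in pTAMs (3.73-fold higher). The other chaperone genes with a heat shock element in the promoter, such as *Dnaja1* (10.68 in BMDM and 10.69 in pTAMs, other probe sets gave from -0.21 to 0.18) and *Hsph1* (9.53 in BMDM and 9.36 in pTAMs), were within 2-fold, and the element stood in 10 of 18 promoters of the list (55.6%) against 5.51% of all. The cytokine, chemokine and NF-κB genes above share signals with the immediate early genes, and the part of handling in them was not tested.

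Some pTAM values lay apart from those of mTAMs, while other differences from BMDM were present in both. Both comparisons used the same BMDM array, so the values are only set side by side. List medians in pTAMs and mTAMs were 2.12 and 2.1 for inflammatory cytokines and 3.1 and 2.99 for alternative activation genes. They were 1.29 and 1.92 for the interleukin-1 list, 0.88 and 1.69 for NF-κB genes and 2.14 and 3.08 for immediate early genes. For MHC class II genes they were 2.16 and 1.19. *Ackr3* was 3.59 in BMDM, 10.65 in pTAMs and 7.78 in mTAMs. *Tnfrsf9* was 4.97 in BMDM, 9.37 in pTAMs and 5.6 in mTAMs. *Pgf*, a relative of VEGF, was 5.85 in BMDM, 7.79 in pTAMs and 5.85 in mTAMs. These 3 genes were highest in pTAMs. On the lower side, *Gpnmb* was 13.16 in BMDM, 6.54 in pTAMs and 10.8 in mTAMs. *Lpl* was 13.2 in BMDM, 7.55 in pTAMs and 11.26 in mTAMs. *Pparg* was 8.01 in BMDM, 5.55 in pTAMs and 7.75 in mTAMs, so the pTAM value was the lowest of the 3. *Atp6v0d2* was 7.88 in BMDM, 6.16 in pTAMs and 10.64 in mTAMs. *Ctsk* was 7.53 in BMDM, 5.7 in pTAMs and 9.95 in mTAMs. The last pair was lower than BMDM in pTAMs and higher in mTAMs. *Atp6v0d2* and *Pparg* are also markers of alveolar macrophages, which live in the lung. The mitotic genes were close in both TAM samples, for example *Cdk1* with 8.57 in pTAMs and 8.32 in mTAMs.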

How the data were processed

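Total RNA of macrophages was hybridised to Affymetrix whole-genome mouse arrays, 1 each for BMDM, pTAMs and mTAMs. The deposited table holds RMA log2 values of 45037 probe sets, which the authors had background-corrected, quantile-normalized and summarized, with no RMA version stated in the sources used here. Since quantile normalization makes the distributions of the arrays alike, these data cannot show whether total mRNA per cell differed. RMA fits the 3 arrays together, and 1321 compared genes (11.1%) had the same value on both arrays, so a difference of 0 is a coarse value.

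Genes were named from the platform annotation, using the 34945 probe sets with 1 symbol and leaving out 932 with several and 9160 without. For each of 18193 genes the probe set with the highest 3-array mean was taken. The floor of 5.3 and the threshold of 2-fold were kept from earlier work on these data, and the genes, the lists and the motifs were chosen with results of these data known, so no list is independent support. List symbols were matched through RefSeq synonyms only where they were not current symbols. Lists were described by counts and medians beside all compared genes, with no test. Named genes were, of each list, up to 6 in each direction and up to 3 within 2-fold, all members of 7 lists and the 30 largest differences each way, and others were named after their values were seen. Some of them are not reported here. Lists share members.

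Alternatives were median centring, quantile and cyclic loess normalization (limma 3.58.1, R 4.3.3), the mean of all probe sets, probe sets not marked as shared between transcripts, no floor, a floor 1 log2 unit higher, values raised to the floor, a 3-fold threshold and leaving out markers of other cells. Promoters came from a RefSeq table of GRCm38.p6 (the first of several starts for 1943 genes). Scripts were tested on simulated data (Python 3.11.15, pandas 2.3.3, numpy 2.4.6, matplotlib 3.10.9).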

Additional observations from a re-analysis of the deposited data

How the results depend on the processing

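The counts of genes at least 2-fold higher (1041) and lower (890) stayed within 1.5 times under every scaling, probe set and floor setting tried. At a 3-fold threshold they were 637 and 378. The balance depended on the scaling, with 53.9% of the called genes higher as deposited, 48.7% after median centring (966 higher, 1017 lower) and 57.7% after cyclic loess normalization (1086 higher, 795 lower). These scalings moved the median of all genes from -0.05 to -0.12 and to 0.001. Of 589 recomputed medians of the 67 lists with at least 3 compared members, 457 differed from the main value by less than the spread used for comparison, 125 differed by more with the same sign, 6 differed by more with one of both values at 0 and 1 differed by more with the opposite sign. In 26 lists with a median of at least 0.3 in size, the median moved by over 1.5 times under at least 1 setting. The opposite sign was in the alveolar macrophage markers, with a median of 2.94 over genes above the floor and -0.05 with no floor, where genes at background enter the list. With probe sets not shared between transcripts, the log2 difference was 0.06 for *Cenpa* and -0.13 for *Plet1*, an alveolar macrophage marker, in place of -1.08 and 3.56, and the cause was not tested. No paired analysis was possible because each group has 1 array, and for the same reason no array could be left out. Differences near the floor are limited by background, and no value has an error across animals.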

Other observations

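Some of the genes with the largest differences belong to no list, and those described here were chosen after their values were seen. *Saa3*, an acute phase apolipoprotein gene, was 4.43 in BMDM, 11.47 in pTAMs and 13.38 in mTAMs, and *Lrg1*, another acute phase gene, was 4.27, 10.36 and 13.33. *F10*, which encodes coagulation factor X, was 4.41 in BMDM, 10.76 in pTAMs and 9.67 in mTAMs, and its other probe sets gave log2 differences (pTAMs minus BMDM) from 3.53 to 5.39. On the lower side, *Pcdh7*, a protocadherin gene, was 9.37 in BMDM and 2.74 in pTAMs, and the log2 difference of its second probe set was -3.88. *St3gal5*, which makes the ganglioside GM3, was 11.27 in BMDM and 7.86 in pTAMs, and *Rnf128*, a ubiquitin ligase gene, was 11.25 and 7.58. *Stap1*, an adaptor protein gene, was 9.76 in BMDM and 6.30 in pTAMs.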
